A study of Gasterosteus aculeatus with 18 samples.

Results

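Egg pools of threespine stickleback (Gasterosteus aculeatus) exposed to the higher of a pair of cortisol doses were compared with pools exposed to the lower one. The comparison took the 6 high and the 6 low pools of the 18 pools sequenced and paired them by replicate number, so that high pool 1 was read against low pool 1. The series' design text gives the doses as 0, 5 and 10 µg/L, and the sample labels name the groups control, low and high. The control group, at 0 µg/L, gives a level outside the contrast and shares in the estimate of the spread. All pools carried the wild type genotype, were taken 72 hours post fertilization and held 10 eggs of a clutch. The labels name the agent as maternally derived cortisol. Whether a shared number marks 1 clutch is not stated, and nothing states that the pools of a group came from separate clutches. The p-values therefore measure only the spread seen among these pools.

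Cortisol is the main glucocorticoid of fish. A mother passes it to her eggs with the yolk, and a stressed mother can pass more of it. In cells it binds the glucocorticoid receptor, a transcription factor that raises some genes and lowers others, while ATP-binding cassette (ABC) transporters, named in the title of the series, are membrane pumps that can move steroids out of cells. According to the design text, the low dose stood for the level that a predator brings on in the mother and the high dose for a level above the physiological range, so the contrast asks what the second step of dose added to the first.

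The deposited values were normalised read counts rounded to whole numbers, and the genes carried Ensembl identifiers only. Of the 17253 identifiers, 0 were in the reference gene table used here, so no gene can be given a symbol, a function or a sequence, and the labelled tissue could not be checked against marker genes. For this reason only the 2 largest rises and the 2 largest falls among called genes with the same direction in all 6 pairs are named, and all other genes are described by rank, level and number. Genes entered the test when their mean over the 18 pools was at least about 11, which left 16103. Differences are on the log2(value + 1) scale. A step of 1 is a doubling for well expressed genes, and the added 1 draws changes of scarce genes toward 0. Sizes of scarce genes picked for their large differences can still be overstated. A gene was called when the paired limma fit gave a Benjamini-Hochberg adjusted p under 0.05.

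The column totals, which carry the authors' scaling, ran from 8355080 to 15125198 normalised reads in low pools and from 8577539 to 15245693 in high pools. Within all 6 pairs the high pool had the larger total. The gap was widest in pair 3, 13881261 against 11361683, and in pair 4, 13418080 against 12198181. High pool 3 stood apart. It had 1220 near-silent genes, meaning genes of the whole table with 5 normalised reads at most, where the remaining high pools had 438 to 802 and the low pools 358 to 597. In 207 genes it was at 0, and the remaining high pools were so in 26 to 76. Near-silent genes were more numerous in the high pool of all 6 pairs. Their median was 507.5 in high pools, 424.5 in low pools and also 507.5 in control pools. Number 3 held the most in the low and control pools too, 597 and 738. A fit below held the number of near-silent genes as a covariate. That number comes from the same values and was higher at the high dose in every pair. The fit therefore cannot separate it from dose, and the part of near-silent genes was not tested.

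In the paired fit limma called 8.07% of the genes tested, of which 700 were higher in high pools (4.35% of the genes tested) and 600 were lower (3.73%). Regardless of the test, 7.02% of genes were higher in all 6 pairs and 6.41% were lower. Called rises had the smaller median, 0.43 against -0.67 for called falls, although 5 rises and 1 fall were larger than 2 on the log2 scale. The called rises were also more abundant, with a median of their mean counts of 375 against 137. Of the 700 higher genes 447 rose by less than 0.5 on the log2 scale, 209 by 0.5 to 1 and 44 by more than 1. Of the 600 lower genes 169 fell by less than 0.5, 330 by 0.5 to 1 and 101 by more than 1. The smallest called changes were 0.21 and -0.22. In whole egg pools a lower value can come from fewer cells of a type or from less RNA per cell, which cannot be told apart. Over all genes tested the median difference was -0.0066 and 1.09% differed by more than 1 in either direction.

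The calls rested on the pairing. Without the replicate block limma called 0 of 16103 genes, and 385 had an unadjusted p under 0.05. The median residual standard deviation per gene was 0.20 on the log2 scale with the block and 0.45 without it. With each column first scaled to the same total, the paired fit called 302 higher and 664 lower genes, so the balance of rises and falls depends on the scaling. With the number of near-silent genes as a covariate, 25 higher and 11 lower genes were called. That number was higher in the high pool of every pair, so this fit cannot separate it from dose.

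ENSGACG00000018614 showed the largest rise. Its normalised read count in low pools 1 to 6 was 14, 10, 361, 23, 69 and 16, and in high pools 1 to 6 it was 82, 120, 507, 238, 959 and 73. The high pool was above its low partner in every pair, but the groups overlapped, because low pool 3 alone exceeded 4 of the high pools. The rise was 2.61 ± 0.34 (SE) on the log2 scale, 6.09-fold, with an adjusted p of 0.000393 in limma. Pair 5 showed the largest step, 3.78, and pair 3 the smallest, 0.49. In control pools the count ran from 9 to 355 with a median of 61.5, and the highest control pool was again number 3.

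ENSGACG00000013656 showed the next largest rise, at low values. Low pools 1 to 6 held 1, 0, 55, 1, 23 and 2 normalised reads, and high pools 1 to 6 held 8, 4, 60, 36, 133 and 10. The rise was 2.197 ± 0.51 (SE) with an adjusted p of 0.0131 in limma, and it ranged from 0.12 in pair 3 to 4.21 in pair 4. The adjusted p was 0.0600 without replicate number 4 and 0.0564 without high pool 5. With the column total as a covariate it was 0.0651, and with the number of near-silent genes it was 0.413. With 5 added to each value in place of 1 the rise was 1.38, with an adjusted p of 0.0303 in limma. Number 3 was again the highest control pool, at 77 where the other control pools held 2 to 12.

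ENSGACG00000003003 showed the largest fall. Low pools 1 to 6 held 37, 221, 30, 109, 74 and 78 normalised reads, and high pools 1 to 6 held 6, 76, 4, 50, 10 and 14. Each high pool lay below its partner and the groups overlapped through high pools 2 and 4. The fall was -2.15 ± 0.29 (SE), a 4.43-fold decrease with an adjusted p of 0.000542 in limma, and it was among the more even ones, from -1.11 in pair 4 to -2.77 in pair 5. Control pools ran from 11 to 171 with a median of 34.5. With the number of near-silent genes as a covariate the difference was -1.38 and the adjusted p 0.0672.

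ENSGACG00000007575 showed the next largest fall of that kind and was uneven. Low pools 1 to 6 held 27, 46, 5, 43, 12 and 40 normalised reads, and high pools 1 to 6 held 2, 36, 0, 19, 10 and 3. Pairs 1, 3 and 6 fell by more than 2 on the log2 scale, and pairs 2 and 5 by 0.35 and 0.24. The fitted difference was -1.81 ± 0.43 (SE) with an adjusted p of 0.0145 in limma. The adjusted p rose to 0.0683 without replicate number 1 and 0.0686 without number 6. It was 0.0566 and 0.0577 without low pools 1 and 6, 0.05004 with the column total as a covariate and 0.474 with the number of near-silent genes. Without the block the adjusted p of each of the 4 named genes was 0.99995.

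**Figure D1:**
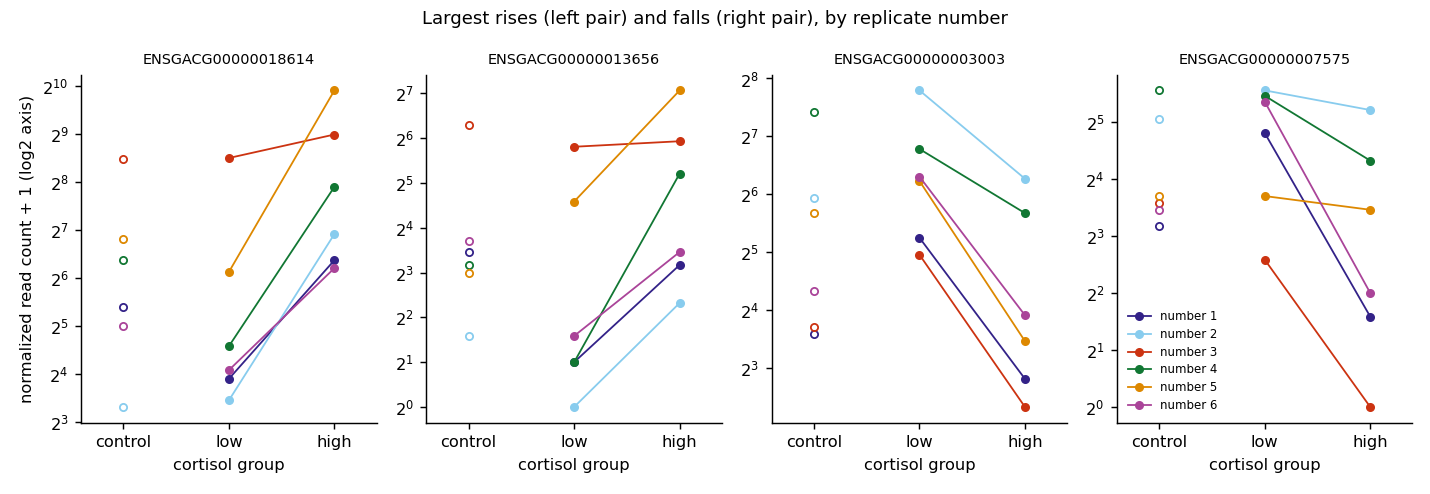
Normalised read count plus 1 (log2 axis) of the 2 largest rises and the 2 largest falls in control, low and high pools, with 1 colour for each replicate number and a line from each low pool to its high partner. The lines of ENSGACG00000018614 and ENSGACG00000013656 all rise and are flattest in number 3, those of ENSGACG00000003003 and ENSGACG00000007575 all fall, and open circles show control pools.

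The 20 largest rises and the 20 largest falls among called genes with 1 direction in all 6 pairs were then taken as sets, chosen on this contrast, so that their differences are a description. The rises ran from 2.61 down to 1.21, and the next gene outside the set stood at 1.18. The falls ran from -2.15 to -1.26, and the next gene also stood at -1.26. A further 6 called rises and 11 called falls were as large as set members but had 1 pair that did not share the direction. The odd pair was number 3 in 3 of the 6 rises, and number 2 or 4 in all 11 falls. Differences without a shared direction were small, between -0.42 and 0 for the rises and between 0 and 0.47 for the falls.

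Most of these genes were of low or middle abundance. The median of their mean normalised counts was 60.4 for the rises and 51.0 for the falls, against 177 over all genes tested. Of the rises 11 had a mean under 100 and 0 had one over 1000, the highest being 550.2. Of the falls 13 had a mean under 100 and 2 had one over 1000. The fall of rank 3 had a mean of 5074. It held 3463, 19374, 3464, 7532, 4133 and 3983 normalised reads in low pools 1 to 6 and 1088, 12350, 671, 4846, 566 and 1182 in high pools 1 to 6. High pools 1, 3, 5 and 6 lay below every low pool, whereas high pools 2 and 4 lay above most low pools and below their own partners. That fall was -1.66 ± 0.27 (SE), with an adjusted p of 0.00118 in limma. The fall of rank 10, with a mean of 1122, was smallest in pair 2, at -0.39, and largest in pair 3, at -3.21.

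None of the 40 genes separated the groups without the pairing, since the high and low pools overlapped in 20 of 20 rises and 20 of 20 falls. Among all those tested, 2 of 16103 genes had every high pool above every low pool, 0.0124%, and 2 had every high pool below every low pool, also 0.0124%. Of those 4, 3 were called, and their changes were small. One of the called genes stood at 252 to 294 normalised reads in high pools and at 191 to 242 in low pools, a rise of 0.31 ± 0.089 (SE, adjusted p = 0.0387 in limma). The called gene on the lower side stood at 1239 to 1831 in high pools and 1832 to 2209 in low pools, a fall of -0.34 ± 0.077 (SE, adjusted p = 0.0118 in limma).

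Evenness over pairs was measured as the smallest of the 6 pair differences in percent of their mean. Its median was 40.8% for the 20 rises, from 5.62% to 82.5%, and 30.3% for the 20 falls, from 7.92% to 70.0%. Over all called genes it was 32.1% for the 700 higher and 22.0% for the 600 lower genes. The 2 sets of 20 were picked for 1 direction in 6 of 6 pairs, which keeps this measure above 0. Only 565 of the 700 and 463 of the 600 met that condition. The medians of the sets are therefore not comparable with those of all called genes. A smallest pair of at least 50% of the mean was found in 167 higher genes, 23.9%, and in 73 lower genes, 12.2%. These more even genes were somewhat more abundant, with a median count of 439 against 366 for the other higher genes and 153 against 134 for the other lower genes. Among changes of more than 1 on the log2 scale, 16 of 44 rises and 12 of 101 falls were even by this measure. The rise of rank 9 was the most even of the 20, with pair differences from 1.22 to 2.08.

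The response of these sets was uneven over the pairs. For the 20 rises the median difference in pairs 1 to 6 was 1.68, 1.53, 0.76, 1.39, 1.67 and 1.79. For the 20 falls it was -1.52, -0.69, -2.59, -0.67, -1.91 and -1.35. Within these 40 genes pair 3 thus had the smallest median rise and the largest median fall. Over all called genes, in the values as deposited, it had the largest median in both directions, 0.55 for the 700 higher and -1.09 for the 600 lower genes. Pair 5 came next with 0.52 and -0.82, and pairs 2 and 4 were smallest, with 0.39 and 0.33 for the higher and -0.31 and -0.45 for the lower genes. Column totals also differed most in pair 3, with 13881261 in the high pool and 11361683 in the low pool. The part of this in the order of the pairs was not tested. Among the 40 genes pair 3 was the pair with the smallest rise in 10 of 20 rises and the pair with the largest fall in 11 of 20 falls. The smallest fall was in pair 4 for 11 genes and in pair 2 for 7.

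**Figure D2:**
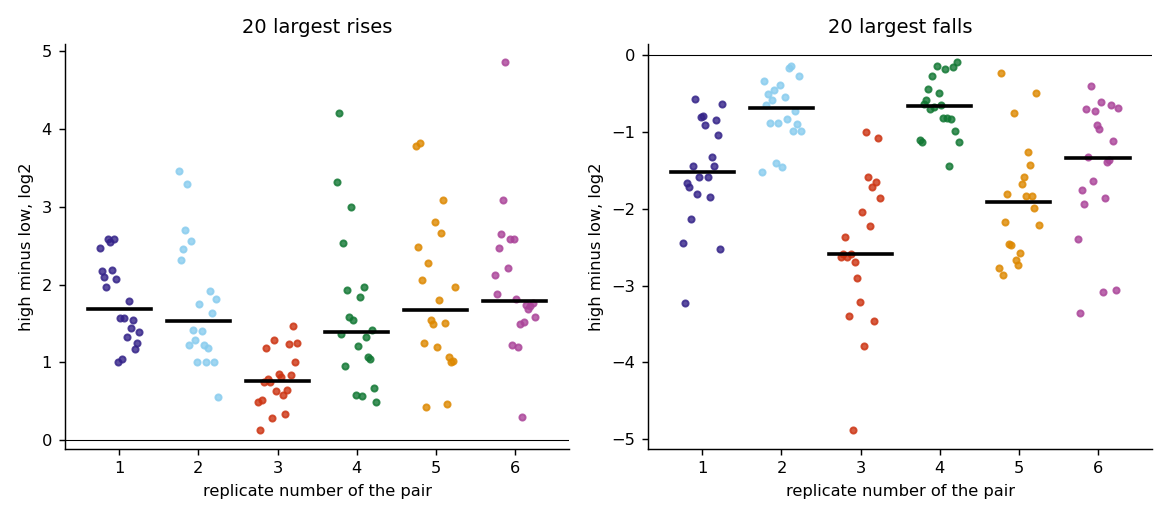
High minus low difference (log2) of each of the 20 largest rises (left) and 20 largest falls (right), by replicate number of the pair, where each point is a gene and the bar is the median of the 20. Pair 3 has the lowest bar among the rises, at 0.76, and the deepest among the falls, at -2.59.

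The control pools, which do not enter the contrast, showed how these genes stood in each number. Centred on each gene's control mean, the 20 rises had a median log2 level of -0.14, -1.94, 1.75, 0.23, 0.37 and -0.20 in control pools 1 to 6. The 20 falls had -0.51, 1.25, -1.08, 0.999, -0.0071 and -0.32. Control pool 3 was therefore high for the rises and low for the falls, and control pool 2 was the reverse. For these 40 genes the number in which the rises were highest at 0 µg/L was the one with the smallest rise, and the numbers in which the falls were highest, 2 and 4, were those with the smallest falls. Control pool 2 was lowest for the rises, and pair 2's median rise of 1.53 was not the largest. Over the 700 higher genes control pool 3 was highest, at 0.44, while pair 3 rose most in the values as deposited, by a median of 0.55. Over the 600 lower genes control pools 2 and 4 were highest, at 0.47 and 0.34, and pairs 2 and 4 fell least. Pools of the same number tended to be alike, and the low pool of a number is subtracted in its pair difference. Level and difference can therefore be linked by construction, and whether level bore on the size of the response was not tested.

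These 40 genes also varied more among control pools than most genes did. The median SD over the 6 control pools was 1.20 on the log2 scale for the 20 rises and 0.97 for the 20 falls, against 0.42 over all genes tested and 0.67 in the least abundant of the 10 classes used below. For the 700 higher genes it was 0.47 and for the 600 lower genes 0.66. An SD over 1 among control pools was found in 75.0% of the 20 rises and 35.0% of the 20 falls, and in 4.35% of all genes tested. Control pools also take part in the estimate of the spread within which genes are called.

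Relative to the control pools, and with the same high and low pools as above, 13 of the 20 largest rises were called in the high pools and none in the low pools. The median high minus control difference of the 20 rises was 0.99 and the median low minus control difference -0.41. In high against control 0.727% of all genes tested were called higher, and in low against control limma called 0 genes in all, with 1782 at an unadjusted p under 0.05. For the 20 falls the medians were -0.84 for high and 0.64 for low against control, with 3 called in high against control, where 0.441% were called lower. Since the sets were chosen on pools that enter these differences, nothing is read from the counts. The same holds for an intermediate control mean, seen in 19 of 20 rises and 19 of 20 falls. Choosing genes by their high minus low difference favours it.

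Abundance was next set from the control pools alone, which split the genes into 10 classes of about 1610 genes. The share of genes called higher rose with abundance, from 1.43% in the lowest class to 7.89% in the highest, while the share called lower was greatest in the second class, at 5.16%, and smallest in the eighth, at 2.42%. The typical size of a pair difference fell over the same range, from a median of 0.44 in the lowest class to 0.18 in the highest. Rises of more than 1 on the log2 scale came mostly from the lower end. Of the 44, 36 were in the 3 lowest classes, where the median control count per class was 17.7, 35.0 and 62.0. The 3 lowest classes held 64 of the 101 falls of that size, and the 2 highest classes held 13.

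**Figure D3:**
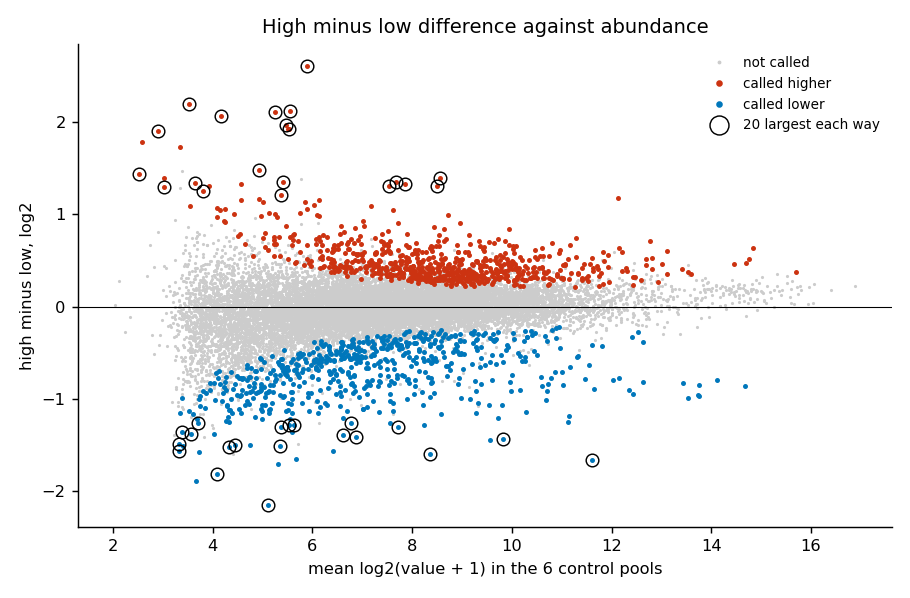
High minus low difference (log2) of each gene tested against its mean log2(value + 1) in the 6 control pools, with called genes in colour and the 20 largest changes each way circled. Called rises crowd at middle and high abundance with small differences, while the circled genes lie mostly at the lower end, and a few abundant genes fall by close to 1.

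Over whole classes, called or not, scarce genes tended lower and abundant genes higher in high pools in the values as deposited. The median difference of the lowest class was -0.085, -0.064, -0.28, -0.13, -0.19 and -0.093 in pairs 1 to 6, below 0 in 6 of 6 pairs (mean -0.14 ± 0.080, SD). That of the highest class was 0.0052, 0.033, 0.19, 0.14, 0.020 and 0.012, above 0 in 6 of 6 pairs (mean 0.066 ± 0.078, SD). Each gave the smallest p that a two-sided exact sign-flip test over 6 pairs allows, 0.03125, and the p adjusted over the 10 classes was 0.0521. No class was under the threshold of 0.05. Pair 3 had the steepest gradient. With equal column totals, which moved the median of all genes from -0.0066 to -0.093, the lowest class stood at -0.22 and the highest at -0.021, so the lowest class again lay below the highest while the sign of the highest class followed the shift. Quantile normalization gives all libraries the same distribution and so removes such a gradient by construction. With it the lowest class stood at 0.035 and the highest at -0.0035. With a minimum mean of 50 the lowest class, then made of more abundant genes, stood at -0.061.

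**Figure D4:**
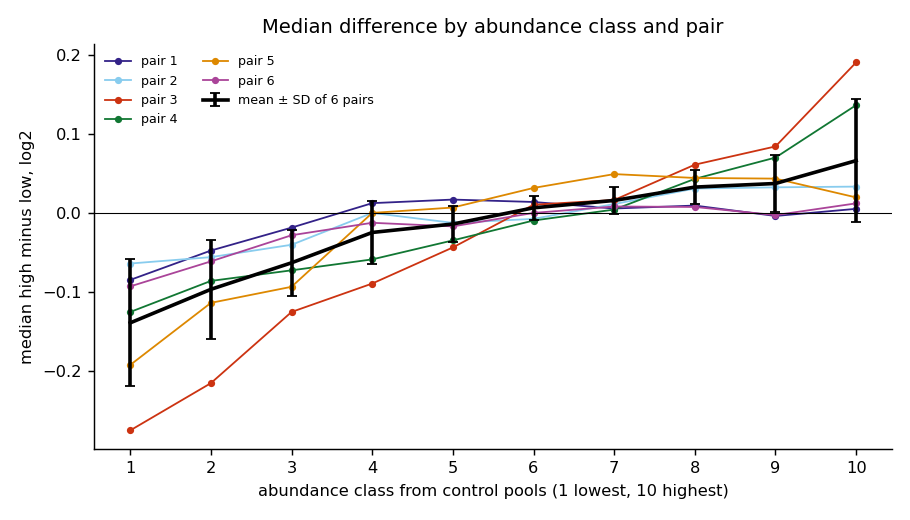
Median high minus low difference (log2) in 10 abundance classes set from the control pools, with 1 line per pair and the mean ± SD of the 6 pairs in black. All 6 lines start below 0 in class 1 and end above 0 in class 10, and pair 3 spans the widest range, from -0.28 to 0.19.

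The most abundant genes were looked at on their own, a choice made after their values were seen. Of the 156 genes with a mean count over 10000, 134 had a difference above 0 and 22 below 0. Their median was 0.16, against -0.0066 over all genes tested. It was not shared by all pairs. In pairs 1 to 6 the median of the 156 was 0.14, -0.026, 0.49, 0.22, 0.0027 and 0.15. The genes are not independent replicates, so the counts of 134 and 22 are a description. Column totals were also larger in the high pool of every pair, and the part of this was not tested for the 156. Called genes among them were 8 higher and 7 lower, 5.13% and 4.49% of the 156. These shares are near the 4.35% and 3.73% of all genes tested, so the counts do not set the abundant genes apart, and the values of the 15 genes are given as a description. The 7 lower genes fell by a median of -0.86, from -0.79 to -0.99, while the 8 higher genes rose by 0.35 to 0.63. Together the 7 lower genes made up 1.18%, 1.67%, 0.652%, 1.60%, 1.65% and 1.34% of the column total in low pools 1 to 6. In high pools 1 to 6 they made up 0.639%, 1.18%, 0.222%, 1.18%, 0.571% and 0.715%. The high pool held the smaller share in every pair, and the groups overlapped only through low pool 3. The median fall of the 7 was largest in pairs 5 and 3, at -1.54 and -1.37, and smallest in pair 4, at -0.33. Of the 7, 5 were lower in 6 of 6 pairs and 2 in 5 of 6. The 7 genes stayed below 0, and the 8 higher ones above 0, under quantile normalization and under equal column totals. With the number of near-silent genes as a covariate 0 of the 15 were called, and the medians were -0.70 for the 7 and 0.20 for the 8.

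The 8 abundant higher genes were even by direction, as all of them were higher in 6 of 6 pairs. They held 0.981%, 1.27%, 1.83%, 1.92%, 2.41% and 1.07% of the column total in low pools 1 to 6 and 1.41%, 1.48%, 2.47%, 2.29%, 2.88% and 1.52% in high pools 1 to 6. In the values as deposited their median rise was largest in pair 3, at 0.72, and smallest in pair 2, at 0.16. Pair 3 also had the widest gap in column totals, and the part of this in the order of the pairs was not tested. All 8 stayed above 0, with medians of 0.38 to 0.49, when single numbers or pools were left out, but fewer passed in most such fits. Over all genes tested, higher calls fell from 700 to 358 without number 1, 285 without number 3 and 568 without number 4. They were 567 without number 5, 332 without number 6 and 731 without number 2. All 8 abundant genes passed the test without replicate number 2 or 5. Of the 8, 2 passed without number 1 or 3, 3 without number 4 and 4 without number 6. It was 3 without high pool 3 or 5 or low pool 1 or 3, 4 without high pool 4 or low pool 6, and 5 without high pool 1 or 6. With the column total as a covariate 4 passed, and without the variance trend 5 did. Of the 7 abundant lower genes 5 to 7 passed without any single number or pool.

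To read each pair without using it to choose its own genes, genes were called from 5 replicate numbers and read in the pair left out. Each pair was thus read on another set of genes. Their number differed, and the median fitted difference of the higher genes ran from 0.46 to 0.57. The shares are therefore not strictly comparable between pairs. In pair 6, 98.8% of 332 genes called higher elsewhere were higher and 95.2% of 314 called lower elsewhere were lower. In pair 1 the shares were 95.5% of 358 and 96.8% of 310, and in pair 3 they were 94.4% of 285 and 95.5% of 220. In pair 5 they were 87.7% of 567 and 91.0% of 421. Pairs 4 and 2 followed least, with 82.0% of 568 and 78.0% of 454 in pair 4, and 78.4% of 731 and 69.4% of 680 in pair 2. Over all genes tested, 47.3% to 49.6% were higher and 48.6% to 50.7% lower within a pair. The share in both directions together averaged 88.6% ± 9.47 (SD, 6 pairs). Pairs 1 and 6, with high shares, had the most similar differences of any pairs (r = 0.61). Each was read on genes called with the other in the fit. Numbers 1 and 6 also had the smallest column totals in control, low and high pools alike. The part of this likeness in their shares was not tested.

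The sizes gave another order. Genes were chosen for passing the threshold in the other 5 numbers, which favours a larger size there than in the pair left out. A smaller size in the left-out pair therefore need not mean a weaker response. For genes called lower elsewhere the median difference was -1.15 in pair 3, where the other 5 numbers gave -0.74, a response of 155% of theirs. It was -0.68 in pair 5 (104%), -0.58 in pair 1 (76.7%), -0.56 in pair 6 (76.2%), -0.28 in pair 4 (36.0%) and -0.17 in pair 2 (24.0%). For genes called higher elsewhere pairs 1, 3, 5 and 6 reached 88.1% to 95.5% of the size seen in the others, pair 4 reached 56.0% and pair 2 reached 53.3%. The pairs therefore differed more in their falls than in their rises. No test was made between pairs, since each is a single high and a single low pool.

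**Figure D5:**
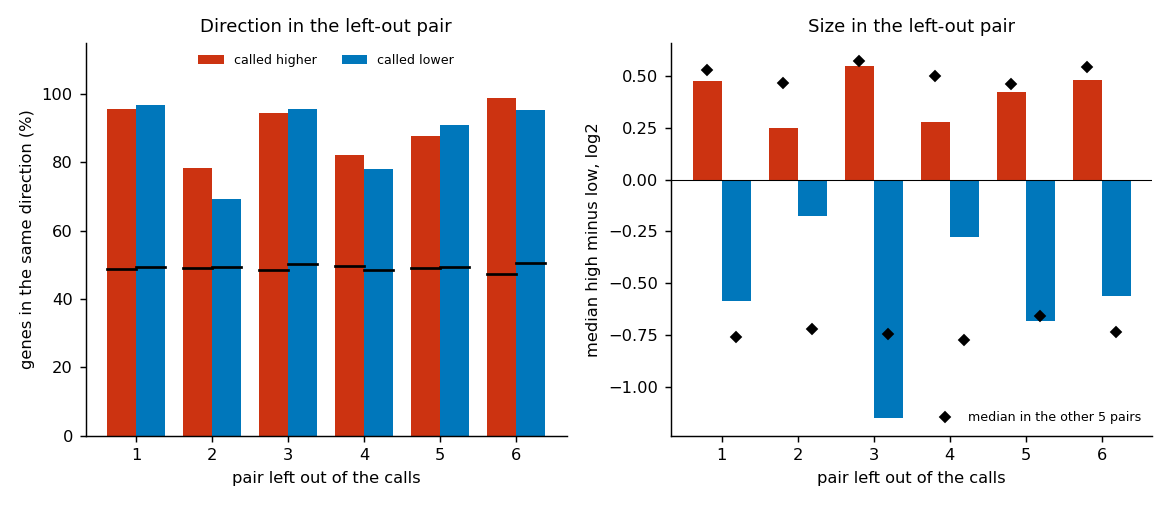
Left, percent of genes called from the other 5 replicate numbers that moved in the same direction in the pair left out, with black lines for the share of all genes in that direction. Right, their median high minus low difference (log2) in that pair, with diamonds for the median fitted from the other numbers. Pair 3 exceeds its diamond most among the lower genes, and pairs 2 and 4 fall furthest short in both directions.

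The spread of all genes within a pair showed which pairs moved most regardless of direction. The SD of the high minus low differences over the 16103 genes was 0.60 in pair 3 and 0.54 in pair 5, against 0.37 to 0.41 in the other 4 pairs. Differences of more than 1 were seen in 7.81% of genes in pair 3 and 6.14% in pair 5, and in 2.06% to 2.25% elsewhere. Pair 3 held the largest of the 6 differences for 54.8% of the lower and 30.9% of the higher called genes, and for 29.7% of all genes tested. Pair 5 did so for 24.3% of the lower and 34.6% of the higher genes, and for 25.6% of all. The high pools of these pairs were also those with the most near-silent genes, 1220 and 802. Their low pools likewise held the most among the low pools, 597 and 550. The part of this in the results was not tested.

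Across the 16103 genes, which are not independent replicates, the differences of the 15 combinations of pairs correlated with r from 0.071 to 0.61. Pairs 1 and 6 were the most alike, and every correlation with pair 2 was at or below 0.26. No library is shared between pairs, but low counts add noise to each of them. Pair 2 had a larger SD of differences than pairs 1, 4 and 6, yet its differences correlated with those of other pairs at only 0.071 to 0.26.

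Single numbers bore on the calls as well. Without replicate numbers 1, 3 and 6 in turn, limma with the block called 358, 285 and 332 higher genes and 310, 220 and 314 lower genes. Without high pool 3 it called 374 higher and 271 lower genes, without high pool 5 it called 373 and 282, and without low pools 1, 3 and 6 it called 361, 410 and 343 higher and 295, 282 and 290 lower genes. Without replicate number 2, whose pair followed the others least, it called 731 higher and 680 lower genes, of which 571 and 515 were among the 700 and 600. Without number 3 the 20 largest rises had a median of 1.53 and the 20 largest falls one of -1.24, with 19 and 15 of them still past the threshold. Over all single numbers and pools left out, 17 to 20 of the rises and 13 to 20 of the falls passed, the 13 without low pool 1 or low pool 6. Both sets were picked for passing on largely the same pools, which favours passing again, so these counts are a description. With the number of near-silent genes as a covariate 8 of the 20 rises and 0 of the 20 falls passed, with medians of 1.4997 and -0.86. That fit called 25 higher and 11 lower genes of the 16103. With the column total as a covariate 19 of the rises and 11 of the falls passed, in a fit that called 412 higher and 295 lower genes.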

How the data were processed

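The authors deposited 1 table of normalized counts, scaled per library and rounded to whole numbers, which is treated here as a score and not as raw counts. The submitters' processing notes list Bowtie2 2.1.0, TopHat2 2.0.8 and TopHat, HTSeq, Cufflinks 2.2.0 with Cuffdiff, edgeR and FastQC, without their roles. The scaling method, genome build and annotation are not given in any source used here, so read depth is unknown, and no count model was fitted. Every gene in the table reached a value of at least 9 in 2 pools, so scarce genes had been removed.

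The filter on low values is a mean of about 1e-06 of the mean column total, and it left out 1150 genes. All 18 pools were fitted on log2(value + 1) with limma 3.58.1 under R 4.3.3, with its variance trend, group and the replicate number as a block, and high minus low was adjusted over all 16103 genes. The block follows from how the comparison was set. After removal of group means, high and low pools of the same number correlated with r of 0.72 to 0.90. Over all groups, controls included, r for the same number was 0.67 to 0.90. Compared only with libraries of the other groups, 18 of 18 libraries correlated best with their own number, and r for other numbers reached 0.76. The labels themselves do not state this pairing. No 2 libraries were alike (at most 2.99% of genes with equal values).

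Named genes were the 2 largest called changes each way with 1 direction in 6 of 6 pairs. The comparison and its lists were chosen with earlier results of these data known. The 11 gene lists by symbol could not be applied. Summaries and plots used Python 3.11.15, pandas 2.3.3 and matplotlib 3.10.9.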

Additional observations from a re-analysis of the deposited data

Results flagged for a closer look

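Of 27 groups of 6 values checked with Dixon's ratio at the 95% limit, 5 held a value far from the other 5. For independent groups of normally distributed values about 1.35 would be flagged. The flagged values were read on the skewed count scale, and most came from named genes, so no excess is read from this number. In ENSGACG00000018614 control pool 3 stood at 355 normalised reads (9 to 111 in the other control pools) and low pool 3 at 361 (10 to 69 in the other low pools). In ENSGACG00000013656 control pool 3 stood at 77 (2 to 12 in the others). In ENSGACG00000003003 control pool 4 stood at 171 (11 to 60 in the others). In high pool 3, 207 genes were at 0, and in the remaining high pools 26 to 76 were.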

How the results depend on the processing

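The fit without the replicate block called 0 higher and 0 lower genes, with 385 genes at an unadjusted p under 0.05, against 700 and 600 with it. The higher and lower counts were 1350 and 1141 when libraries were weighted, 1128 and 1022 at a threshold of 0.10, 412 and 295 with the column total as a covariate, and 25 and 11 with the number of near-silent genes. The higher count was 302 with equal column totals and 453 without the variance trend, where 404 lower genes were called. Leaving out 1 replicate number or 1 pool gave 285 to 752 higher and 220 to 761 lower genes. The other alternatives (a fit of the high and low pools only, a minimum mean of 50, no filter, a pseudocount of 5, quantile normalization and robust shrinkage) kept both counts within 1.5 times. In none of the alternatives in which it was tested did a named gene change sign, and ENSGACG00000018614 failed the threshold only without the block. The median difference of the highest abundance class was -0.0035 under quantile normalization and -0.021 with equal column totals, and that of the lowest was 0.035 and -0.22 under the same settings and -0.061 with a minimum mean of 50, where the lowest class holds other genes. Without single numbers these medians were 0.038 to 0.079 and -0.17 to -0.088, where 5 pairs allow no p under 0.0625. The held-out share of genes in the same direction was 84.4% to 90.7% over all its alternatives, and 88.8% to 90.7% without single numbers. The cause of these shifts was not tested. Rounding limits genes with few reads most.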
